A study of Mus musculus with 6 samples.

Results

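The lysosomal genes examined here comprise 35 listed members: cathepsins and other proteases, glycosidases, lipid-handling proteins, lysosomal membrane proteins, subunits of the vacuolar ATPase, and the transcription factors TFEB and TFE3. They were chosen by symbol, as rows of a gene table whose gene name equals a listed member, and 34 of the 35 had such a row among 23793. Glb1 (beta-galactosidase) was listed only in a row combined with Tmppe and is given apart. The samples were i660BM cells, a pro-B line from C57BL/6 mice kept in medium with interleukin 7 and carrying a doxycycline-inducible PU.1 system. The 3 control libraries came from cells that were not induced, and the 3 induced libraries came from cells given doxycycline at 70 ng/ml for 48 h. PU.1, encoded by Spi1, is an ETS family transcription factor of myeloid and B cells. All 6 libraries came from a single line, and none received the drug without the inducible factor, so doxycycline and PU.1 cannot be told apart. The comparison of the 2 groups addresses which genes differ after doxycycline induction of PU.1 in this pro-B line.

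Lysosomes are acidic organelles in which hydrolases degrade proteins, glycans and lipids. The vacuolar ATPase pumps the protons that keep them acid, and TFEB and TFE3 are basic helix-loop-helix factors that bind CACGTG-containing sites near many lysosomal genes. In B cells and phagocytes the same proteases also process antigens for MHC class II presentation, where cathepsin S trims the invariant chain.

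Each gene had 1 deposited FPKM value per group, that is, fragments scaled by transcript length and sequencing depth, so values can be set side by side between genes and no spread between libraries can be given. From the spacing of the lowest values the depth was estimated, approximately, at 119000000 fragments for the 3 non-induced libraries together and 124000000 for the 3 induced ones. Called genes, and those described as rising or falling, had a Cuffdiff q-value under 0.05 in a row that the authors tested. Log2 changes, induced over non-induced, are given ± an implied standard error, which is the log2 change divided by the deposited test statistic and is not a spread between libraries. Spi1 was at 36.0 FPKM before and 246 FPKM after induction per the authors' deposited table. Of 12 pro-B cell markers 12 were tested and 8 were higher, where 19.0% of all tested genes were. Their summed level went from 2896 to 4305 FPKM, with Igll1 from 538 to 1083 and Vpreb1 from 683 to 1197 FPKM. Cd79a was at 596 FPKM before induction, and its change was not called. Rag1 and Rag2 were near 0 before induction, at 0.00348 and 0.00853 FPKM. After induction they were at 0.434 and 1.60 FPKM, and Rag2 was not called. Dntt went from 2.24 to 6.90 FPKM per the authors' deposited table. Ptprc, which encodes the pan-leukocyte protein CD45, was listed there at 0.00608 and 0.0649 FPKM and was not tested.

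Of the 34 members with a row, 29 were tested by the authors, and 19 of these were called, 15 higher and 4 lower in induced cells. The 5 untested members were Atp6v0d2, Cd63, Ctsh, Ctsl and Hexa. Among all 10657 tested genes 35.1% were called, 19.0% higher and 16.1% lower, against 65.5%, 51.7% and 13.8% of the tested members. The median log2 change was 0.22 over the tested members and -0.01 over all tested genes. Most of the changes were small: 14 of the 19 called members differed by less than 1.5-fold. At 1.5-fold or more, 5 members were higher (Lgmn, Asah1, Lipa, Grn and Psap), where 6.34% of all tested genes passed that rule upward and 3.85% downward. When p-values were instead taken from the deposited statistic as a normal deviate, 7 members were higher (those 5, Atp6ap1 and Npc2) and 1 was lower (Gusb), beside 8.97% and 6.16% of all tested genes. Direction varied by functional group. In the lipid-handling group, in which progranulin (Grn) is counted throughout, 5 of 6 genes rose, and 3 of 4 tested glycosidase genes fell. The proteases, membrane proteins and vacuolar ATPase subunits were divided between rises and no call, with 1 fall.

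**Figure D1:**
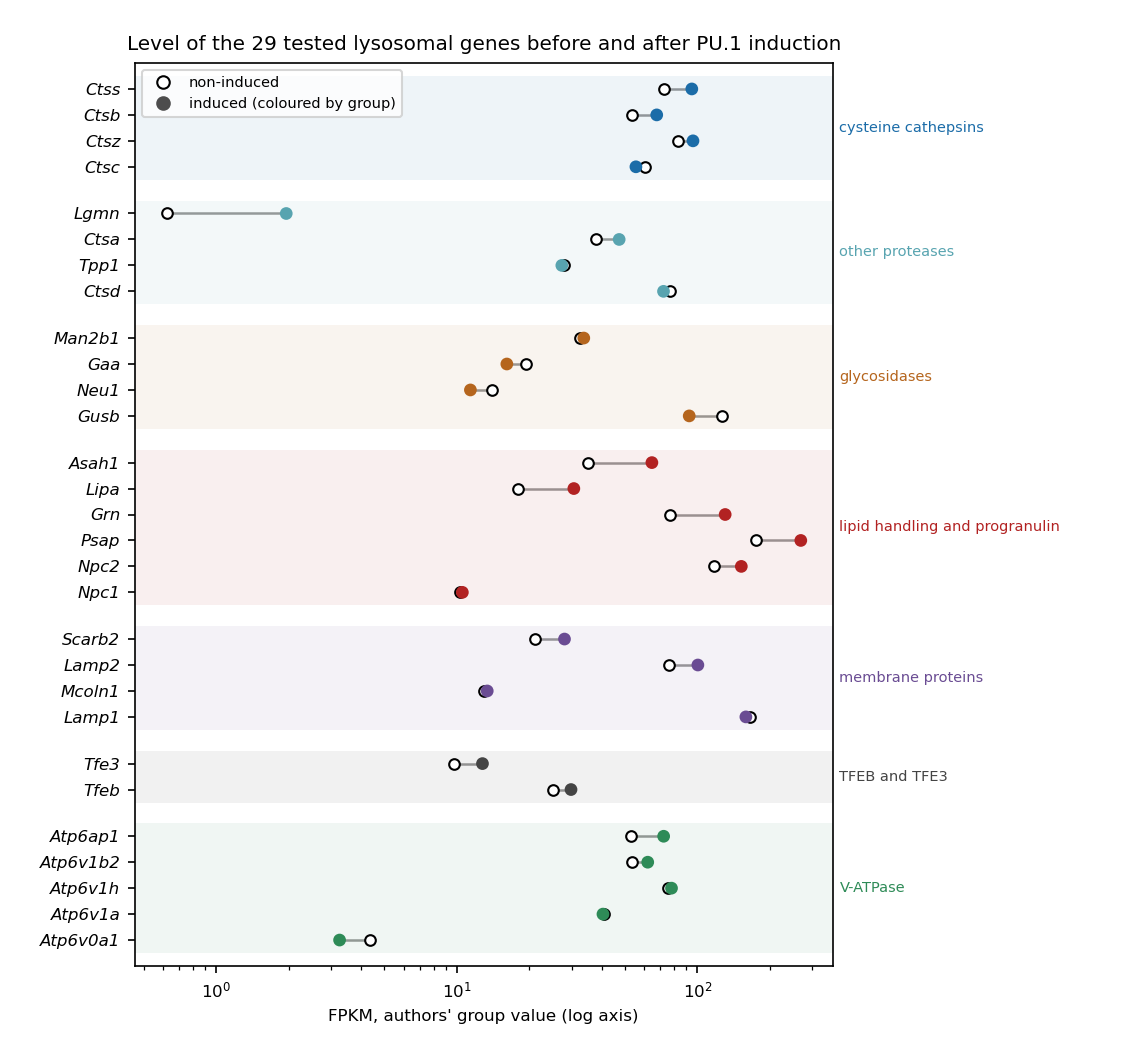
Authors' FPKM value per group (log axis) of the 29 tested members, by functional group; open circles are non-induced and filled circles induced cells, each the value of 3 libraries. The lowest tested member, Lgmn, from 0.622 to 1.95 FPKM, also had the widest gap.

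For 4 of the 5 members that changed by at least 1.5-fold the DNA before the start site is shown first, because the results turn on these genes. Upstream sequences were taken from RefSeq (GRCm38.p6, the same assembly as mm10), where 28 of the 35 members, not Asah1, had at least 1 window. Each line gives the 250 bases before an annotated start, 5′ to 3′ on the gene's strand. Capitals mark GAGGAA, the core of purine-rich sites bound by PU.1 and other ETS factors, and CACGTG, the core bound by TFEB, each on either strand; in Ctsd 1 CACGTG is capitalised together with its flanking T and A, as TCACGTGA. Ctsd is added as an uncalled protease, the same functional group as Lgmn.
Grn, chr11:102430257-102430506, plus strand: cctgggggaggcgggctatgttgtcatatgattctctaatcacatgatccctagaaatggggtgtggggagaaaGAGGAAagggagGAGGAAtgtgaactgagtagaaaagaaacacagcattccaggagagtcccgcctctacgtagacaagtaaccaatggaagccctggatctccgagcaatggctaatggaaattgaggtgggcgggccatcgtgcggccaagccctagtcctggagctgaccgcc
Lipa, chr19:34527475-34527724, minus strand: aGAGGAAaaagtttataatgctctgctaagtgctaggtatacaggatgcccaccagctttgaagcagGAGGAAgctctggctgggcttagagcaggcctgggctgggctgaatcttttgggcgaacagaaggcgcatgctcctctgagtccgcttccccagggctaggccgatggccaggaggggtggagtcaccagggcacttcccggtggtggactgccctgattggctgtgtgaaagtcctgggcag
Psap, outer start, chr10:60277378-60277627, plus strand: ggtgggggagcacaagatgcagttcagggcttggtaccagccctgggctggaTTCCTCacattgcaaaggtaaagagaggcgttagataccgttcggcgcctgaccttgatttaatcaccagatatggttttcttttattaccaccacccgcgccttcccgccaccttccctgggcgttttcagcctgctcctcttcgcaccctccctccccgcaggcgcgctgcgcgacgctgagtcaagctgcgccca
Lgmn, outer start, chr12:102439729-102439978, minus strand: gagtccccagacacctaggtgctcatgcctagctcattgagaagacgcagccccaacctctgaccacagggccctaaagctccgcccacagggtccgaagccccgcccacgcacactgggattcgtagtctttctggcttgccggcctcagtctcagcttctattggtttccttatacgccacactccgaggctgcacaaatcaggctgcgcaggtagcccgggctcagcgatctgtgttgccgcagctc
Lgmn, inner start, chr12:102439093-102439342, minus strand: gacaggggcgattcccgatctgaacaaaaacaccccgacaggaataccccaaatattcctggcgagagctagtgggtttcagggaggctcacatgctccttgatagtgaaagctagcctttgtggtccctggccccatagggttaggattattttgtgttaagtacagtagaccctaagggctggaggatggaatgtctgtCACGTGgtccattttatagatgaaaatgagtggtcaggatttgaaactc
Ctsd, chr7:142387828-142388077, minus strand: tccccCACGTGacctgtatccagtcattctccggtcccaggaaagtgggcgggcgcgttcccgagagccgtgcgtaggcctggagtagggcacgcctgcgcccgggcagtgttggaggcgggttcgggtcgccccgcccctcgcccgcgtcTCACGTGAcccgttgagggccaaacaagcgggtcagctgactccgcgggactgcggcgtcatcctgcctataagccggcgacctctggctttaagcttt
Grn and Lipa each held 2 copies of GAGGAA, the outer Psap window held 1, and the outer Lgmn window held no copy of the searched words. A second Psap window, before an inner start and not shown, held none either. The inner Lgmn window held 1 CACGTG, and Ctsd held 2, 1 of them within the longer palindrome TCACGTGA.

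A set of 4 motifs was searched on both strands over the 300-base RefSeq windows (250 bases before to 50 after the start): GAGGAAGT, the shorter GAGGAA it contains, CACGTG, and TCACGTGA, which contains CACGTG. GAGGAAGT was found in 3.20% of all 32851 windows, in at least 1 window of 3.84% of tested genes, and in 3 of the 24 tested members with a window (Ctss, Ctsc and Gusb), of which 1 rose, 1 was not called and 1 fell. GAGGAA was present in 28.3% of all windows, in at least 1 window of 30.2% of the 8015 tested genes with a window, and in 9 of the 24 tested members (37.5%). Those 9 were 5 of 12 members that rose, 2 of 4 that fell and 2 of 8 that were not called. The TFEB core CACGTG was found in 7.15% of all windows, in at least 1 window of 12.2% of tested genes, and in 7 of the 24 tested members (29.2%). Those 7 were 2 of 12 members that rose, 1 of 4 that fell and 4 of 8 that were not called. TCACGTGA was present in 0.974% of all windows, in at least 1 window of 2.48% of tested genes, and in 4 of the 24 tested members, Ctsa, Ctsd, Mcoln1 and Atp6v1a, of which only Ctsa was called. A match is a description of these letters and not a shown binding site.
A stretch with each kind of match is printed next, with the motif (CACGTG in Lamp1, GAGGAAGT on the other strand in Ctss) in capitals.
Lamp1, chr8:13159091-13159160, plus strand, positions -70 to -1 from the start: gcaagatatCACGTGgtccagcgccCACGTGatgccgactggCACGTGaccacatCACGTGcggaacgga
Ctss, chr3:95526766-95526795, plus strand, positions -20 to 10 from the start: aaaccgaaatgaaagttcACTTCCTCattg
Lamp1 held 4 copies of CACGTG in these 70 bases and was not called, and the Ctss match lay across the start site of a gene that rose. These 2 genes were picked after their values were seen.

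The lipid-handling members, counted with progranulin (Grn), had a median log2 change of 0.69, and 5 of 6 rose, all 5 also with normal p-values. Their summed level went from 433 to 657 FPKM, a ratio of 1.52. Asah1, acid ceramidase, which cleaves ceramide, went from 35.03 to 64.6 FPKM per the authors' deposited table. That is a 1.85-fold rise, a log2 change of 0.88 ± 0.14, larger than that of 96.1% of tested genes. The gene lies on the minus strand of chromosome 8 at 41340197 to 41374773 (mm10, GENCODE M21, protein-coding).

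Lipa, lysosomal acid lipase, which hydrolyses cholesteryl esters and triglycerides, went from 17.9 to 30.6 FPKM per the authors' deposited table (log2 change 0.77 ± 0.15). Psap encodes prosaposin, the precursor of the saposins that present sphingolipids to their hydrolases. It was the most abundant member in both groups, at 175 and 269 FPKM per the authors' deposited table (log2 change 0.62 ± 0.14). Grn encodes progranulin, a secreted and lysosomal glycoprotein that is processed into granulins and travels with prosaposin. It went from 76.9 to 130.3 FPKM per the authors' deposited table, a log2 change of 0.76 ± 0.13. Lipa lies on chromosome 19 at 34492318 to 34527474 (minus strand), Psap on chromosome 10 at 60277627 to 60302597 (plus strand) and Grn on chromosome 11 at 102430315 to 102437048 (plus strand).

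The cholesterol exporters Npc1 and Npc2 act as a pair, the soluble Npc2 handing cholesterol to the membrane protein Npc1. Npc2 rose from 117 to 152 FPKM per the authors' deposited table, a log2 change of 0.37 ± 0.14. Npc1 was listed at 10.3 and 10.5 FPKM per the authors' deposited table, without a call. Its log2 change of 0.03 had an approximate 95% range of -0.36 to 0.41 (1.96 implied standard errors each way), which includes the change of Npc2.

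Among the cysteine cathepsins 2 of 4 tested members rose and the other 2 were not called; neither rise was called with normal p-values. Ctss, cathepsin S, went from 72.7 to 94.7 FPKM per the authors' deposited table (log2 change 0.38 ± 0.15), and is annotated at chromosome 3, 95526786 to 95556403, plus strand. Ctsb, cathepsin B, an endopeptidase, went from 53.3 to 67.7 FPKM there (log2 change 0.34 ± 0.16). Ctsz, cathepsin Z, a carboxypeptidase, was listed at 83.2 and 95.8 FPKM per the authors' deposited table, with a 95% range of the log2 change of -0.18 to 0.59, and was not called. Ctsc, the dipeptidyl peptidase that activates granule serine proteases, was listed at 60.6 and 55.5 FPKM per the authors' deposited table, without a call either. These 4 stood within a narrow band of levels, above 82.0% or more of tested genes before induction.

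Ctsh and Ctsl were the exceptions. Ctsl, cathepsin L, was listed at 0 in both groups per the authors' deposited table. Ctsh, cathepsin H, an aminopeptidase, was listed there at 0.0721 and 0.0145 FPKM, about 14 and 3 fragments over all libraries of a group. Neither was tested. Such values can be failed estimates, which was not tested for these genes. The same holds for the other genes listed at or near 0, such as Hexa, Cd63, Atp6v0d2, Ptprc and the cell type markers.

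Of the 4 other proteases, Lgmn and Ctsa rose, and with normal p-values Lgmn alone was called. Lgmn, legumain or asparaginyl endopeptidase, which activates several cathepsins by cleavage after asparagine, had the largest change of the 29 tested members. It went from 0.622 to 1.95 FPKM per the authors' deposited table, a 3.14-fold rise with a log2 change of 1.65 ± 0.25, above 98.4% of tested genes. It was also the least abundant tested member in both groups, and the steps in FPKM gave about 148 and 481 fragments over 3 libraries each. Lgmn lies on the minus strand of chromosome 12 at 102394084 to 102439813. Ctsa, the serine carboxypeptidase that protects beta-galactosidase and neuraminidase, went from 37.9 to 47.3 FPKM per the authors' deposited table (log2 change 0.32 ± 0.15). Ctsd, the aspartic endopeptidase cathepsin D, was listed at 76.6 and 72.2 FPKM and was not called per the authors' deposited table. Tpp1, a tripeptidyl peptidase, stood there at 28.0 and 27.3 FPKM and was not called. Their approximate 95% ranges of the log2 change were -0.35 to 0.18 for Ctsd and -0.31 to 0.24 for Tpp1.

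**Figure D2:**
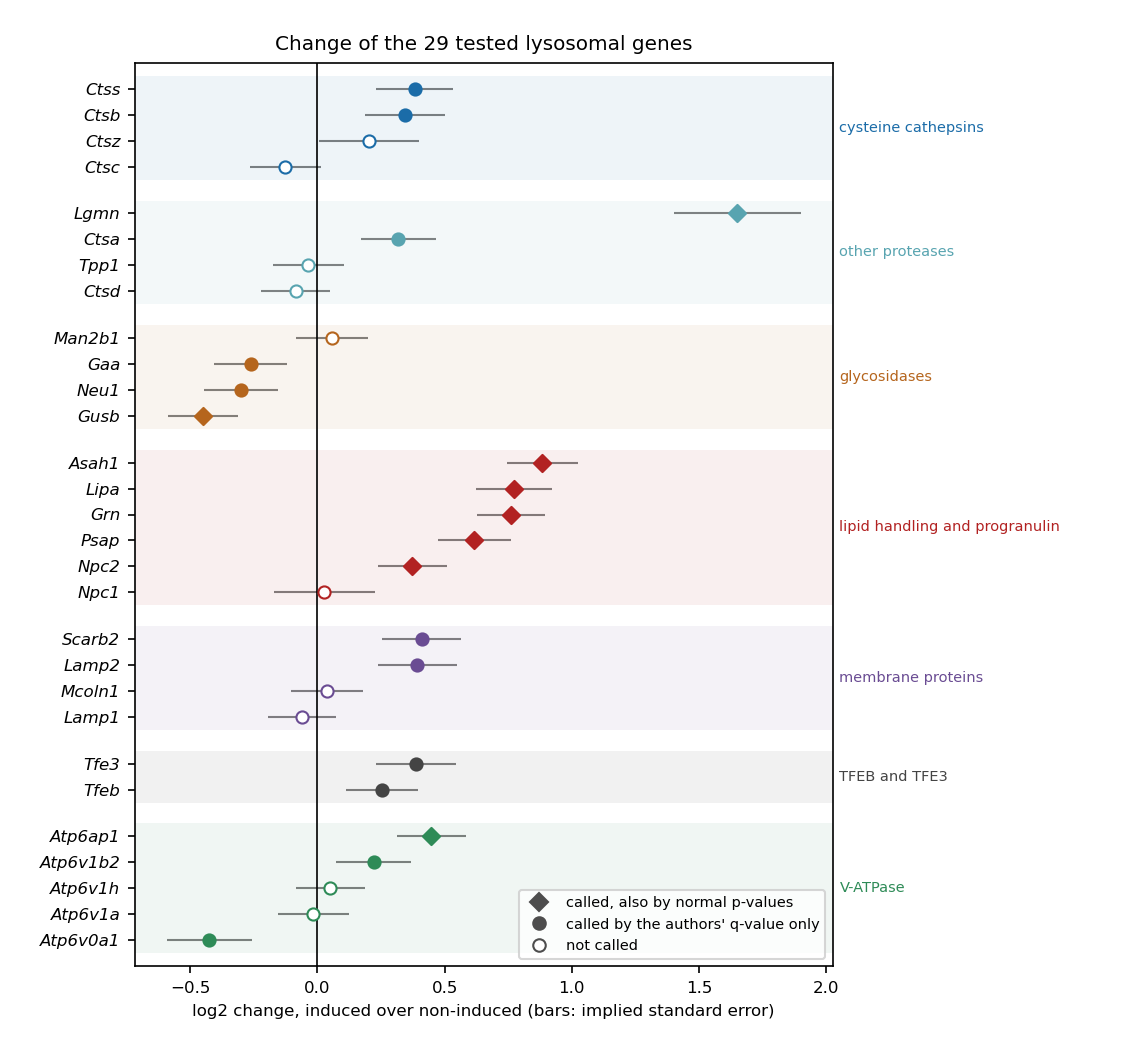
Log2 change, induced over non-induced, of the 29 tested members with bars of 1 implied standard error; filled symbols are called by the authors' q-value, diamonds also by normal p-values, and open circles are not called. Lgmn at 1.65 lies apart, 5 of the 6 lipid-handling members carry diamonds, and the glycosidases Gusb, Neu1 and Gaa lie to the left of 0.

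Glycosidases, which remove sugars from glycoproteins, glycolipids and glycogen, were mostly lower. Of 4 tested members 3 fell, of which only Gusb was called with normal p-values, and the summed level went from 192 to 154 FPKM, a ratio of 0.80. Gusb, beta-glucuronidase, went from 126 to 92.4 FPKM per the authors' deposited table, a log2 change of -0.45 ± 0.14. Only 6.51% of tested genes had a lower log2 change than Gusb. It lies on the minus strand of chromosome 5 at 129989011 to 130003049. Neu1, the lysosomal sialidase, went from 14.0 to 11.4 FPKM per the authors' deposited table (log2 change -0.30 ± 0.15). Gaa, acid alpha-glucosidase, which degrades glycogen, went from 19.4 to 16.1 FPKM there (log2 change -0.26 ± 0.14).

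The approximate 95% range of Gaa, -0.55 to 0.02, includes 0, as do those of the called members Tfeb and Atp6v1b2. Man2b1, the lysosomal alpha-mannosidase, was listed at 32.4 and 33.7 FPKM per the authors' deposited table, without a call. The combined row of Glb1 and Tmppe was listed at 27.2 and 30.1 FPKM per the authors' deposited table, with a log2 change of 0.14, and was not called. Hexa, the alpha subunit of beta-hexosaminidase, was listed at 0.00913 and 0 FPKM per the authors' deposited table, about 2 fragments before induction, and was not tested.

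Of the 4 tested lysosomal membrane proteins 2 rose, neither called with normal p-values. Lamp2, a major glycoprotein of the lysosomal membrane that also serves chaperone-mediated autophagy, went from 76.4 to 100.4 FPKM per the authors' deposited table (log2 change 0.39 ± 0.15). Scarb2, the receptor that carries beta-glucocerebrosidase to lysosomes, went from 21.1 to 28.0 FPKM there (log2 change 0.41 ± 0.16). Lamp1, the close relative of Lamp2, was the second most abundant member at 166 FPKM before and 159 FPKM after induction per the authors' deposited table, without a call. Its 95% range of the log2 change was -0.32 to 0.20, and the difference between Lamp1 and Lamp2 was not tested. Mcoln1, the calcium channel TRPML1, stood at 13.0 and 13.4 FPKM per the authors' deposited table, without a call. The tetraspanin gene Cd63 was listed there at 0.00957 and 0 FPKM, about 1 fragment before induction, and was not tested.

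Both transcription factor genes rose slightly. Tfe3 went from 9.77 to 12.8 FPKM per the authors' deposited table, a log2 change of 0.39 ± 0.16. Tfeb went from 25.01 to 29.8 FPKM there, a log2 change of 0.25 ± 0.14 (q = 0.0116). TFEB and TFE3 are known to be controlled mainly by phosphorylation and movement into the nucleus, which transcript levels do not measure. Neither was called with normal p-values.

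The vacuolar ATPase consists of a membrane sector, V0, and a cytosolic sector, V1, that hydrolyses ATP. Of the 5 tested subunit genes listed, 2 rose, 1 fell and 2 were not called; only Atp6ap1 was called with normal p-values. Atp6ap1, an accessory protein of the V0 sector, went from 53.1 to 72.3 FPKM per the authors' deposited table (log2 change 0.45 ± 0.14). Atp6v1b2, the B subunit of V1, went from 53.3 to 62.1 FPKM there (log2 change 0.22 ± 0.15, q = 0.0253). Atp6v0a1, 1 of the alternative a subunits of V0, fell from 4.37 to 3.25 FPKM per the authors' deposited table (log2 change -0.43 ± 0.17).

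Atp6v1a, the catalytic A subunit, was listed at 40.9 and 40.5 FPKM and Atp6v1h, the regulatory H subunit, at 75.3 and 78.0 FPKM per the authors' deposited table, and neither was called. The 95% ranges of the log2 change were -0.29 to 0.26 for Atp6v1a and -0.22 to 0.32 for Atp6v1h. Atp6v0d2, a d subunit known from osteoclasts and macrophages, was listed at 0 in both groups per the authors' deposited table and was not tested.

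**Figure D3:**
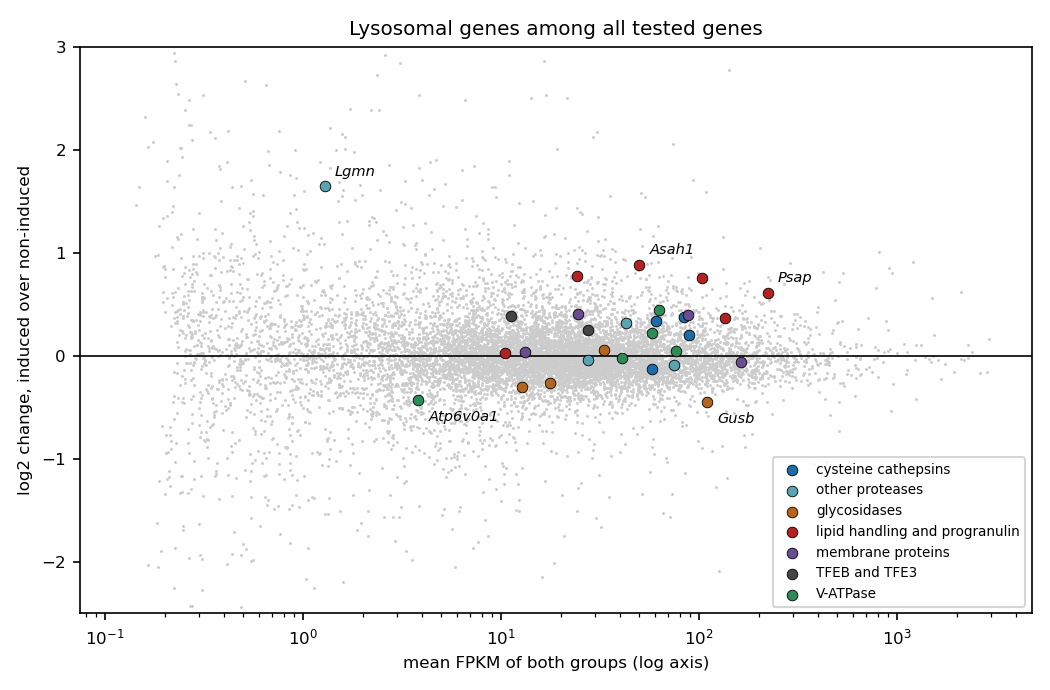
Log2 change, induced over non-induced, against the mean FPKM of both groups (log axis) for the tested genes with a finite change (grey, 10628 drawn, 82 of them outside the axis range) and the 29 tested members (coloured by functional group). The 5 lipid-handling members that rose lie between 0.37 and 0.88, and Lgmn sits at 1.65 at a low level.

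Tested members were abundant compared with other genes. Their median level was 40.9 FPKM before induction, against 15.8 FPKM over all tested genes, and 23 of 29 lay above the latter. Signs were uneven too: 20 of 29 tested members had a positive log2 change (69.0%), against 48.6% of all tested genes. Of the tested members, 7 shared a locus in the table with another row, with which fragments can have been split: Ctsb with Fdft1, Ctsz with Nelfcd, Ctsa with Pltp and Neurl2, Npc1 with 3110002H16Rik, Atp6v1b2 with Slc18a1, and Scarb2 and Atp6v0a1 with a microRNA gene each.

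Other genes of the lysosomal system, 157 in 9 lists, were examined in the same way. They had 126 tested rows, of which 35 were higher (27.8%), 21 lower (16.7%) and 70 not called, with a median log2 change of 0.04. Among all tested genes 19.0% were higher and 16.1% lower, so the share that was lower was near the background. With normal p-values 23 were higher and 8 lower, where 8.97% and 6.16% of all tested genes were. Of the 157 genes, 3 had no row of their own. In the text that follows, up to 4 called genes per list with the largest change are named; of these Mtor, Lamtor1, Tmem55b, Slc15a3 and Scpep1 share a locus with another row.

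The cathepsin inhibitors of the cystatin family changed in both directions, with 1 of 3 tested genes higher and 2 lower. Cst3, the secreted cystatin C, went from 133 to 275 FPKM and had a log2 change of 1.05 ± 0.11 per the authors' deposited table. Cst7, cystatin F, which is targeted to lysosomes and acts on cathepsin C, fell from 78.3 to 40.6 FPKM there (log2 change -0.95 ± 0.13). Cstb, the intracellular cystatin B, went from 148 to 126 FPKM per the authors' deposited table.

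Among further proteases 3 of 5 tested were higher and 1 lower. The lower gene was Napsa, the aspartic protease napsin A, from 596 to 292 FPKM per the authors' deposited table (log2 change -1.03 ± 0.13). That level was above the level of each listed member in both groups. Prcp, a prolyl carboxypeptidase (log2 change 0.57), Ctso, cathepsin O (0.48), and Scpep1, a serine carboxypeptidase (0.41), rose per the authors' deposited table.

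Among further hydrolases of lipids, phosphate esters and nucleic acids 4 of 14 tested rows were higher and 3 lower. The median log2 change of the 14 was 0.07, and the 4 with the largest change, named next, were all higher. Pld4, an exonuclease of endolysosomes that degrades single-stranded nucleic acids, went from 4.94 to 28.7 FPKM per the authors' deposited table (log2 change 2.54 ± 0.15). Dnase2a, the acid deoxyribonuclease, went from 10.4 to 23.2 FPKM there (log2 change 1.16 ± 0.14). Gm2a, the GM2 ganglioside activator protein, had a log2 change of 0.62 and Ppt1, a palmitoyl-protein thioesterase, one of 0.41 per the authors' deposited table. Rnaset2b stood in 2 rows at separate loci, neither called, and these near-identical copies can share fragments.

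Further glycosidases, sulfatases and glycan hydrolases were divided, 5 of 20 tested higher and 5 lower, and with normal p-values 3 and 1. Fuca1, which encodes a fucosidase, rose (log2 change 0.65) per the authors' deposited table. Galc, which encodes galactosylceramidase, fell by 0.56 on the log2 scale per the authors' deposited table. The median log2 change of this list was -0.12.

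Further membrane proteins, transporters and channels had 9 of 25 tested genes higher and 4 lower. Cd68, the macrosialin of macrophage lysosomes, went from 1.85 to 6.86 FPKM per the authors' deposited table (log2 change 1.89 ± 0.23), and Tmem55b from 27.7 to 48.7 FPKM. Mcoln2, a relative of Mcoln1, had a log2 change of -0.94 and Slc15a3, a peptide and histidine transporter, one of -0.73 per the authors' deposited table. Of the other vacuolar ATPase subunit genes 4 of 15 tested were higher and the other 11 were not called. Atp6v0b went from 90.7 to 142 FPKM and Tcirg1, the a3 subunit, from 64.2 to 92.6 FPKM per the authors' deposited table, and Atp6v0d1 (log2 change 0.31) and Atp6v1d (0.29) rose there as well.

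The machinery that sorts enzymes to lysosomes had 4 of 16 tested genes higher and 3 lower, both near the shares over all tested genes. With normal p-values 0 were higher and 2 lower, where 8.97% and 6.16% of all tested genes were. Counts this small show no direction. M6pr, the cation-dependent mannose 6-phosphate receptor, went from 103 to 132 FPKM per the authors' deposited table. Gnptab, part of the enzyme that makes the mannose 6-phosphate tag, went from 47.2 to 34.1 FPKM there. The clathrin adaptor gene Ap1m1 (log2 change 0.34) rose and the retromer gene Vps29 (-0.35) fell per the authors' deposited table. Of the nutrient sensing genes and further factors of the TFEB family 3 of 17 tested were higher (17.6%) and 3 lower (17.6%). These shares were near those over all tested genes, 19.0% and 16.1%. With normal p-values 1 was higher and 0 lower. Mtor, the kinase that phosphorylates TFEB, went from 71.8 to 125.6 FPKM per the authors' deposited table. Lamtor1, of the Ragulator complex (log2 change 0.37) rose, and the Rag GTPase genes Rraga (-0.32) and Rragd (-0.32) fell, per the authors' deposited table. Among tethering and late endosome genes 2 of 11 tested were higher (18.2%, near the 19.0% of all tested genes), and the other 9 were not called. The 2 were the HOPS subunit gene Vps18 (log2 change 0.77) and the small GTPase gene Arl8b (0.22) per the authors' deposited table.

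**Figure D4:**
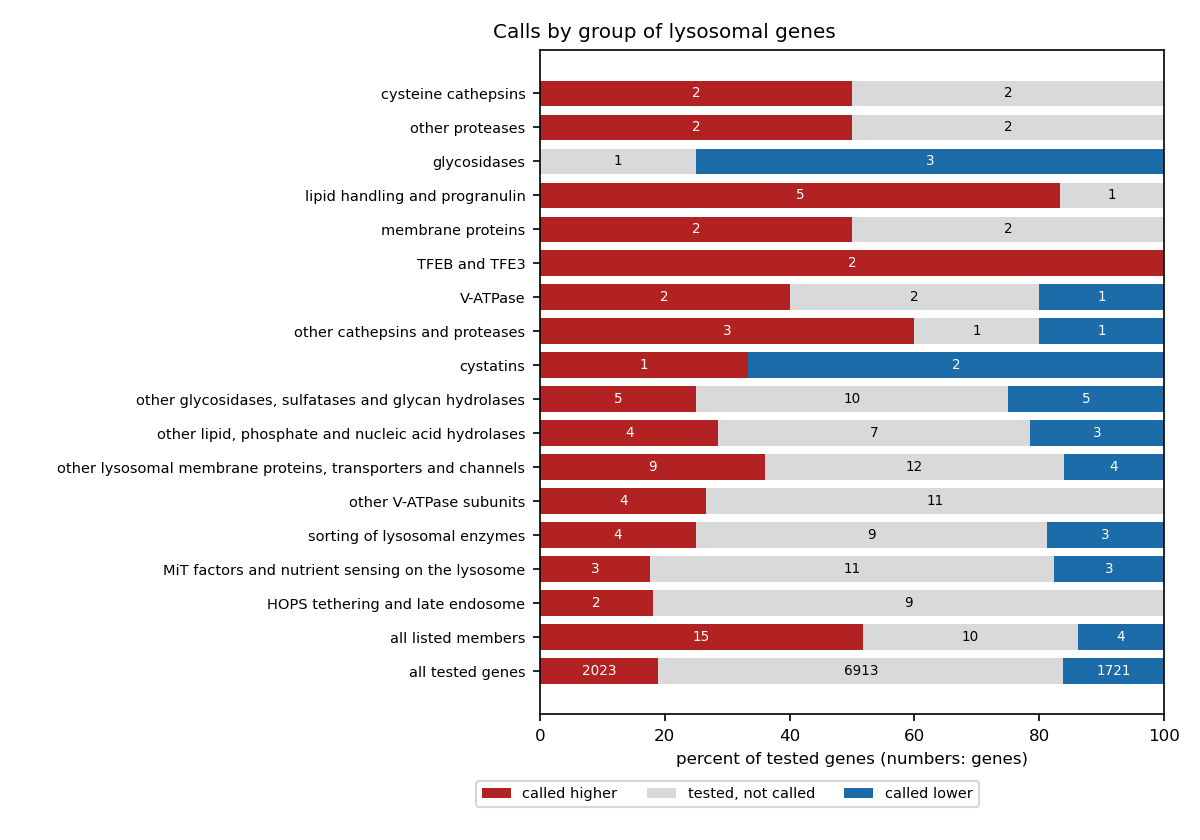
Share of tested genes called higher (red), called lower (blue) or not called (grey) in each group of members, in each list of other lysosomal genes, in all members and in all tested genes; numbers are genes. The lipid-handling bar is mostly red (5 of 6) and the glycosidase bar mostly blue (3 of 4), against 2023 and 1721 of 10657 tested genes.

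Markers of other cells moved beside these results. Of 12 macrophage and monocyte markers 5 were tested and 4 were higher, and the summed level of the 12 went from 1.12 to 18.5 FPKM, of which Lyz2 made up 15.2 FPKM after induction per the authors' deposited table. Msr1 was listed at 0 in both groups, and Csf1r and Itgam at 0.192 and 0.151 FPKM in induced cells, per the authors' deposited table. Of 7 dendritic cell markers 2 were tested and both were higher, Siglech from 0.0389 to 3.98 FPKM and Flt3 from 0.308 to 0.759 FPKM per the authors' deposited table. All 7 stromal markers were listed at 0 in both groups, and 7 of 8 granulocyte markers were under 0.1 FPKM in both. Of 6 osteoclast markers 5 were under 0.1 FPKM in both groups, and Acp5, at 9.96 and 8.05 FPKM per the authors' deposited table, was not called. Acp5 was 1 of 15 rows at its locus, among which fragments can have been split, and its implied standard error was 0.75. The part of these cell type markers in the changes of the lysosomal genes was not tested, and in bulk RNA a change in the cells present and a change in RNA per cell cannot be told apart.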

How the data were processed

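Stranded mRNA libraries were made from 3 non-induced and 3 induced samples, per the labels' protocols. Whether the libraries of a group were separate cultures is not labelled, so the spread behind the authors' p-values may be technical. The submitters' processing notes list build mm10, Cuffdiff 2.1.1, Cufflinks, TopHat2 2.0.9 and Trim Galore 0.2.8.1. The gene annotation and the use of strand are not stated there.

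The authors deposited 1 Cuffdiff table with an FPKM value per gene and group, a log2 fold change, p- and q-values and a test statistic, a score with no unit. It has 10657 tested rows, 13135 untested ones and 1 with too many fragments. The smallest q-value, 0.000287, was shared by 14 members. The deposited values were used as they stand, and no test per gene was refitted. Fragments were estimated from FPKM times the longest coding transcript's length: 67.7% and 66.4% of the lowest values lay within 0.15 of a whole number at the best step, against 30% for evenly spread values. For 29 tested rows the log2 change was not finite. The normal p-values received Benjamini-Hochberg adjustment over all tested rows, a step tested on data simulated with normal noise. Because the noise was normal by construction, that simulation cannot show whether the deposited statistic is a normal deviate. Coordinates are from GENCODE M21, on mm10. Python 3.11.15 was used.

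Members and lists were chosen with earlier results of these data known. All members are named; of each other list, up to 4 called genes with the largest absolute log2 change and at least 1 FPKM in either group, some of which are not reported here. Upstream sequence is shown for members called with at least 1.5-fold change, and for an uncalled relative.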

Additional observations from a re-analysis of the deposited data

How the results depend on the processing

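The count of 15 higher members became 7 with p-values from the test statistic as a normal deviate and 5 at 1.5-fold or more. The count of 4 lower members became 1 (Gusb) and 0 under the same settings. The cause of the difference between deposited and normal p-values was not tested. Both counts stayed within 1.5 times under the other 3 settings: at least 5 FPKM (14 and 3), rows that share a locus left out (11 and 3) and a q-value threshold of 0.01 (13 and 4). The median log2 change of tested members ranged from 0.15, without shared loci, to 0.23, centred on all tested genes, over 6 alternatives. No paired analysis was possible because the table holds 1 value per group; for the same reason no replicate could be left out. Members near 0 FPKM had no test.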
